A study of Mus musculus with 12 samples.

Results

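The genes described here are 10 genes of the Notch pathway and of marginal zone B cells: Notch1, Notch2, Dtx1, Dtx4, Hes1, Hes5, Cr2, Cd1d1, Asb2 and Marcks. They were chosen by name, with earlier results of these data known, and every noncontrol probe whose RefSeq accession belongs to 1 of these genes was used. This gave 14 of the 55681 probes of the array, and 10 of the 22751 genes that were tested. Of the 14 probes, 13 passed the filter on dim probes, and each of the 10 genes kept at least 1 probe. RNA came from splenic follicular B cells of male C57BL/6J mice. The 4 groups of 3 arrays were wild-type cells (WT) at 0 h, WT cells at 24 h, cells without Bach2 (Bach2-/-) at 0 h, and Bach2-/- cells at 24 h. Bach2 encodes a DNA-binding protein with BTB and bZIP domains that mostly represses transcription. The 24 h cells had been cultured with 10 µg/mL of a Fab' fragment against IgM, which engages the B cell receptor. No 24 h group without anti-IgM is among the samples, so the time in culture and the stimulus cannot be told apart. The Bach2 deletion is not described in the labels as limited to B cells, so effects within B cells and on their development cannot be told apart.

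Notch receptors are cut after they bind a ligand on a neighbouring cell, and the released part joins RBPJ and Mastermind proteins on DNA to switch on target genes such as those of the HES family. In the spleen, Notch2 signaling through the ligand DLL1 is needed for marginal zone B cells, which sit at the edge of the follicle, whereas follicular B cells make up the recirculating majority. Marginal zone B cells are told from follicular ones by more complement receptor CD21 (Cr2), more CD1d and less CD23 (Fcer2a). Deltex proteins, the products of Dtx1 and Dtx4, are ubiquitin ligases that act on Notch signaling, and Dtx1 is itself a known Notch target in B cells. ASB2 is the substrate-binding part of a cullin ubiquitin ligase and was reported as a Notch target, and MARCKS is a protein kinase C substrate that binds actin and the inner face of the plasma membrane.

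RefSeq promoter windows of 300 bases, most of each upstream of the gene's start, were at hand for 6 of the 10 genes (Notch1, Notch2, Dtx1, Hes5, Cr2 and Asb2, the last with 2 starts). The core letters of the RBPJ site, TGGGAA, were searched on both strands. They occurred in the windows of Hes5 and Cr2 and in none of the other 5 windows, and 25.6% of all 32851 mouse promoter windows of the same length hold them. Hes5 and Cr2 were lower in Bach2-/- cells at 24 h, but so were Notch2 and Dtx1, whose windows lack the core. The sequences of Hes5 and Cr2 are shown only because they hold it. They are given 5′ to 3′ on the gene's strand in build GRCm38.p6, with the matches in capitals (TTCCCA is the same core read from the other strand).
Hes5, chr4:154960673-154960972, plus strand: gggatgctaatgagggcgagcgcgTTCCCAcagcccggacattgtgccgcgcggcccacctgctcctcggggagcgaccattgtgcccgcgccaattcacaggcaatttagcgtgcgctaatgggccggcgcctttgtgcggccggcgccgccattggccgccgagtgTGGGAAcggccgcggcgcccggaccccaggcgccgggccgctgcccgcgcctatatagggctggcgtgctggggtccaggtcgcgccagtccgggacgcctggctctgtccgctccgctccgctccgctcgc
Cr2, chr1:195176670-195176969, minus strand: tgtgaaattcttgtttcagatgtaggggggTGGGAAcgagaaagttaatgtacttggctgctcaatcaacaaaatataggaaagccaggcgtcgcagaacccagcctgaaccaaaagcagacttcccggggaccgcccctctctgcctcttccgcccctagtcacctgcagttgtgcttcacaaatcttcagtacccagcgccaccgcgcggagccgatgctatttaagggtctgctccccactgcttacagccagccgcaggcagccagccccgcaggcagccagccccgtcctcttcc
The Hes5 window held the core on the plus strand with its first base at -82 from the start site and on the opposite strand at -226, and the Cr2 window held it at -220. The letters TGANTCA, the core of the site type bound by AP-1 and, with MAF partners, by BACH proteins, occurred in none of the 7 windows and in 7.81% of all promoter windows. A match describes letters in a window and shows no binding.

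Levels are given as the log2 signal of a gene's brightest probe relative to the 75th percentile of its array, so they compare groups for 1 gene and not genes with each other. Differences are log2 ± standard error (SE) with n = 3 arrays per group, and a gene passed at a limma adjusted p under 0.05, adjusted over all 22751 genes. Values of 3 arrays are given in the order of their replicate numbers. The replicate 1 arrays (4) lay on slide 2 and all others (8) on slide 1, and the slides were scanned on different days. The 75th percentile of the signal ran from 87.4 to 307 over the 12 arrays, and 50.9% to 66.7% of spots were well above background. Bach2 itself was lower in Bach2-/- cells before stimulation (-2.56 ± 0.30, adjusted p = 0.00240) and after it (-3.75 ± 0.30, adjusted p = 5.54e-05), and the position of its probe relative to the deletion was not looked up here. A pair of arrays stood apart. On Bach2-/- 0 h replicate 1, none of the 4 Y-linked genes checked was above background though all mice are labelled male, against 3 or 4 of 4 on the other 11 arrays. Bach2-/- 24 h replicate 2 was the dimmest array. Xist, the RNA of the inactive X chromosome, was also well above background with both its probes on 5 arrays, replicate 1 of all 4 groups and Bach2-/- 0 h replicate 3, so Xist signal was not limited to the array without Y-linked signal. Calls of the 10 genes that change without the pair of arrays, or on slide 1 alone (without any replicate 1), are given with that value. Without Bach2-/- 0 h replicate 3 these calls were lost: Marcks at 0 h (adjusted p = 0.0678), Notch2 at 24 h (0.0833), the difference of the changes of Dtx4 (0.0781), and the falls of Hes1, Hes5 and Marcks in Bach2-/- cells (0.145, 0.0630 and 0.0574). The labels do not say that replicates were separate mice or cultures, so the spread behind each p-value is that of the arrays and may be technical.

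Before stimulation, 2 of the 10 genes differed between the genotypes, and both were higher in Bach2-/- cells: Asb2 and Marcks. Over all genes tested, 0.629% passed in that comparison, 0.536% higher and 0.0923% lower. After 24 h with anti-IgM, 7 of the 10 passed, against 3.0% of all genes (2.16% higher, 0.835% lower): Notch2, Dtx1, Dtx4, Hes5, Cr2 and Marcks were lower in Bach2-/- cells, and Asb2 was higher. The median difference of the 10 genes was -0.06 at 0 h and -1.26 at 24 h, beside 0.03 and -0.05 over all genes. The arrays of the groups did not overlap for 3 of the 10 genes at 0 h and for 8 at 24 h, against 12.1% and 15.4% of all genes. The 10 genes and the lists used below were chosen with earlier results of these data known. Counts set beside the shares over all genes, here and below, therefore describe the sets and are no independent test of them.

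**Figure D1:**
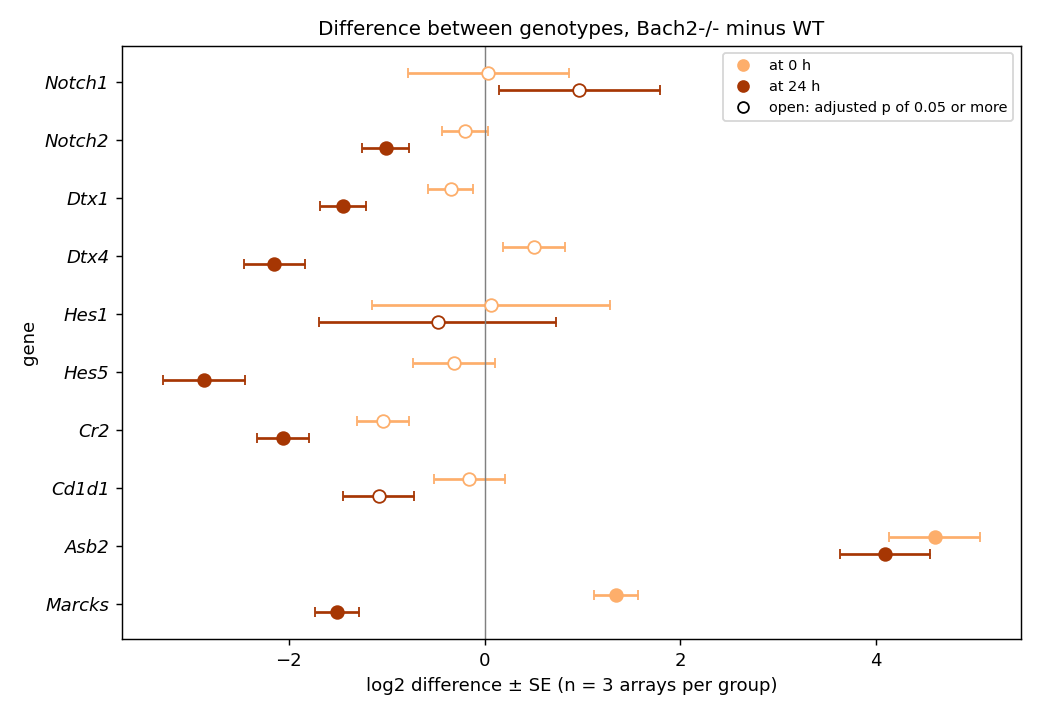
Difference between genotypes (Bach2-/- minus WT, log2 ± SE, n = 3 arrays per group) for each of the 10 genes at 0 h (light) and at 24 h with anti-IgM (dark), with filled points where the limma adjusted p was under 0.05. At 0 h only Asb2 and Marcks are filled, both to the right of 0, whereas at 24 h 6 of the 7 filled points lie to the left and Asb2 stays to the right.

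Notch2, the receptor that B cells of the spleen depend on for the marginal zone fate, fell with stimulation in both genotypes. Notch2 read 4.26, 4.54 and 4.60 before stimulation and 3.40, 3.27 and 3.36 after it on the WT arrays. For Notch2, Bach2-/- arrays read 4.17, 4.29 and 4.34 before and 2.56, 1.88 and 2.55 after. Both 24 h groups lay below both 0 h groups, the 0 h groups overlapped, and the 3 Bach2-/- arrays at 24 h were the lowest of the 12. The change was -1.13 ± 0.24 in WT cells (adjusted p = 0.00663) and -1.94 ± 0.24 in Bach2-/- cells (adjusted p = 0.000204). At 24 h Notch2 was 2.01-fold lower in Bach2-/- cells (-1.01 ± 0.24, adjusted p = 0.0454). That call was near the threshold: it was lost in 21 of 26 alternative settings, with the adjusted p at 0.117 without the pair of arrays that stood apart, at 0.0582 on slide 1 alone and at 0.00657 with the replicate number as a block. A dimmer probe of Notch2 gave -0.69 ± 0.22 at 24 h (adjusted p = 0.163) and fell in both genotypes (-0.91 in WT and -1.48 in Bach2-/- cells, adjusted p = 0.0133 and 0.000797).

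Notch1, the other receptor of the set, passed in no comparison. Notch1 read -2.44, -0.98 and -0.999 before stimulation and -2.49, -1.01 and -1.26 after it on the WT arrays. For Notch1, Bach2-/- arrays read -2.42, -0.88 and -1.001 before and -2.24, 1.36 and -0.97 after. Replicate 1, the array on slide 2, was the lowest of each group, and the array with 1.36 was the dimmest array of the study. The genotype difference at 24 h was 0.97 ± 0.82 (adjusted p = 0.710) with all arrays and -0.02 without Bach2-/- 24 h replicate 2. A second probe of Notch1 was above background on 5 of 12 arrays and was not tested.

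Of the Deltex genes, Dtx1 fell in Bach2-/- cells and was lower in them than in WT cells at 24 h. Dtx1 read 5.70, 5.69 and 5.44 before stimulation and 5.80, 5.45 and 5.14 after it on the WT arrays. For Dtx1, Bach2-/- arrays read 5.47, 5.13 and 5.20 before and 4.11, 3.95 and 4.01 after. The first 3 of these groups overlapped, and the stimulated Bach2-/- arrays lay more than 1 log2 unit below every other array. At 24 h Dtx1 was 2.72-fold lower in Bach2-/- cells (-1.45 ± 0.23, adjusted p = 0.00512), and this passed in 25 of 26 alternatives, the exception being the fit of the compared groups alone (adjusted p = 0.0882). The 24 h change was -0.15 ± 0.23 in WT cells (adjusted p = 0.744; -0.61 and called with quantile scaling, -0.67 and called with normexp) and -1.25 ± 0.23 in Bach2-/- cells (adjusted p = 0.00332). The difference between these changes was -1.10 ± 0.33, which missed the threshold (adjusted p = 0.348) and passed with the replicate number as a block (adjusted p = 0.0237).

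Dtx4 rose 10.1-fold in WT cells, and its change in Bach2-/- cells was smaller. Dtx4 read 0.32, -0.37 and -0.08 before stimulation and 3.69, 3.12 and 3.06 after it on the WT arrays. For Dtx4, Bach2-/- arrays read 1.08, 0.05 and 0.24 before and 1.01, 1.18 and 1.24 after. The stimulated WT arrays stood alone at the top, and the 2 Bach2-/- groups overlapped. The change was 3.33 ± 0.31 in WT cells (adjusted p = 4.28e-05) and 0.69 ± 0.31 in Bach2-/- cells (adjusted p = 0.215; 0.0351 with the replicate block). Within slide 1 the change in Bach2-/- cells was 1.07 (adjusted p = 0.00840), and on slide 2 it was -0.08. The 2 changes differed by -2.65 ± 0.44 (adjusted p = 0.0302), and at 24 h Dtx4 was 4.42-fold lower in Bach2-/- cells (-2.14 ± 0.31, adjusted p = 0.00287), which passed in all 26 alternatives. The test of the 2 changes lost its call in 11 of 25 alternatives, among them the fit without the pair of arrays that stood apart (adjusted p = 0.0656).

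Hes5, a bHLH repressor and Notch target, was 7.28-fold lower in Bach2-/- than in WT cells at 24 h, the largest of the 6 decreases. Hes5 read 2.97, 2.09 and 2.07 before stimulation and 4.22, 2.70 and 3.27 after it on the WT arrays. For Hes5, Bach2-/- arrays read 2.71, 1.67 and 1.82 before and 0.67, 0.27 and 0.66 after. The groups overlapped at 0 h, and at 24 h every Bach2-/- array was more than 2 log2 units below every WT array. The 24 h genotype difference was -2.86 ± 0.42 (adjusted p = 0.00288), with -2.52 on slide 1 and -3.55 on slide 2, and it passed in all 26 alternatives. Hes5 fell in Bach2-/- cells (-1.54 ± 0.42, adjusted p = 0.0317), a call lost in 7 of 26 alternatives, among them the fit without the pair of arrays that stood apart (-1.08, adjusted p = 0.178). In WT cells the change was 1.02 ± 0.42 (adjusted p = 0.115; 0.00334 with the replicate block and 0.0329 on slide 1 alone), positive in each of the 3 same-numbered pairs. The difference of the 2 changes was -2.55 ± 0.59 (adjusted p = 0.155; 0.00310 with the replicate block).

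Hes1, the other HES gene of the set, had lower levels at 24 h in both genotypes and was too dim there for a genotype comparison. Hes1 read -3.11, 0.47 and 0.18 before stimulation and -6.61, -3.67 and -3.27 after it on the WT arrays. For Hes1, Bach2-/- arrays read -2.68, 0.14 and 0.27 before and -6.64, -3.85 and -4.49 after. Replicate 1, on slide 2, was more than 2 log2 units below the others in each group, and the genotypes overlapped at each time. Hes1 was well above background on all 6 arrays at 0 h. At 24 h this held for 2 of 3 WT arrays and for no Bach2-/- array. In Bach2-/- cells it was at least 10.9-fold lower at 24 h than at 0 h (adjusted p = 0.0388; lost in 9 of 25 alternatives, among them the floor of 0.1 and normexp, with -2.57 and -1.52). The change in WT cells was -3.70 ± 1.21 (adjusted p = 0.0513), and it passed with the replicate block (adjusted p = 3.51e-06), on slide 1 alone (0.000157) and without the pair of arrays that stood apart (0.0392). No fold between genotypes is given at 24 h, where the fitted difference had an adjusted p of 0.923.

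**Figure D2:**
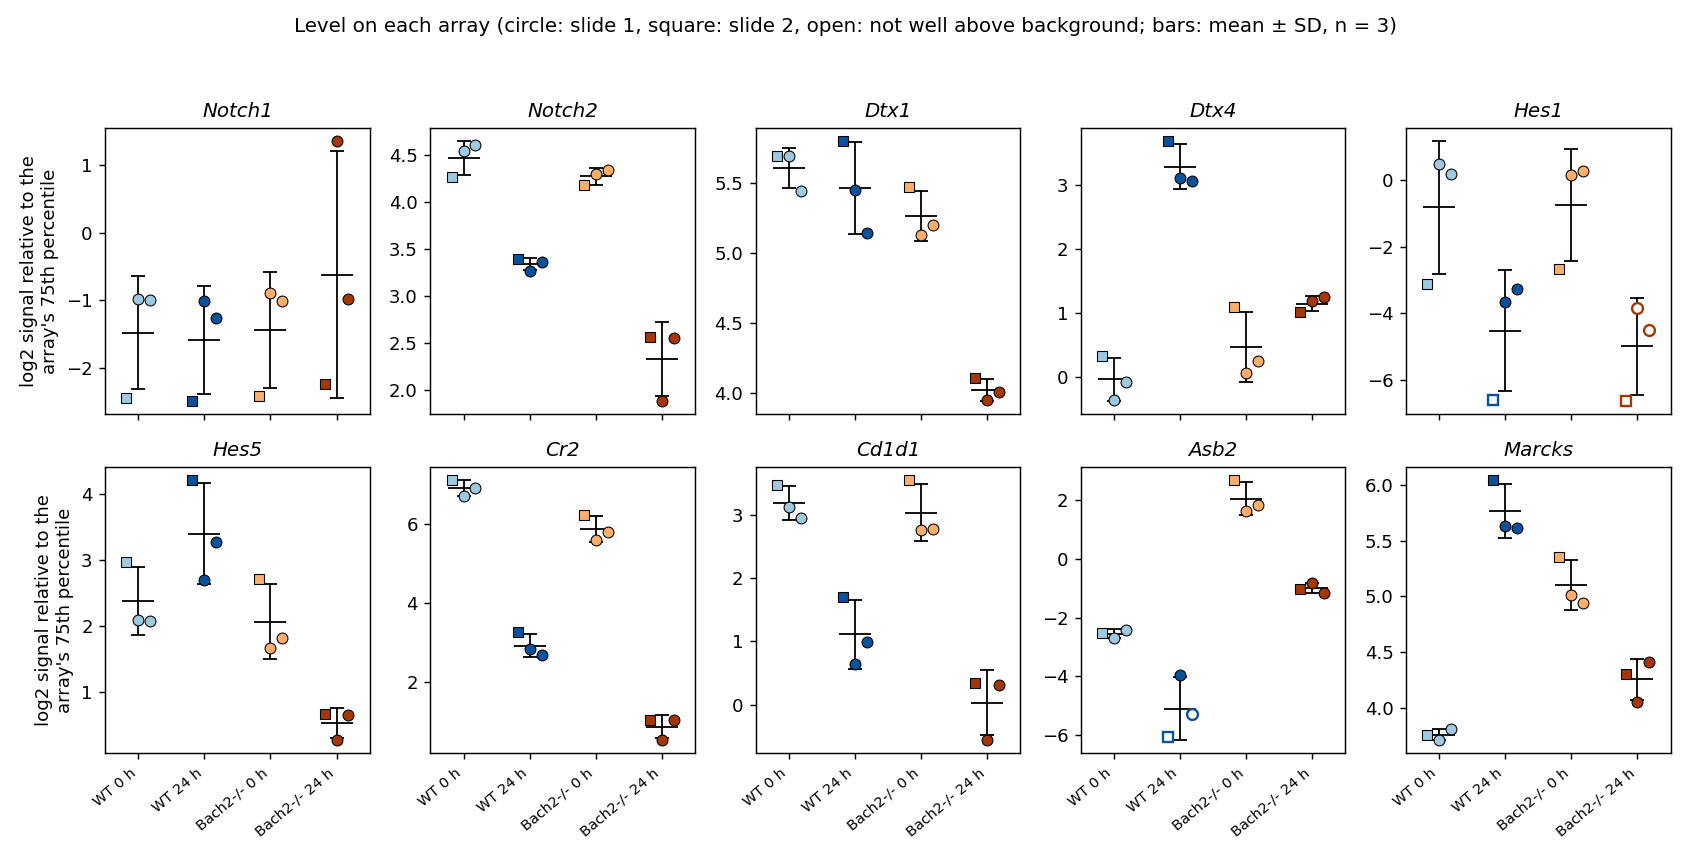
Log2 signal relative to the array's 75th percentile on each of the 12 arrays, with 1 panel per gene, the 4 groups on the horizontal axis, circles for slide 1, squares for slide 2, open symbols for arrays not well above background, and bars for mean ± SD (n = 3). Hes1 and Notch1 show replicate 1 far below the rest, Dtx4 is high in the stimulated WT arrays alone, and Cr2 steps down from WT to Bach2-/- cells at both times.

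Cr2, which encodes the complement receptors CD21 and CD35, fell with stimulation in both genotypes and was lower in Bach2-/- cells at 24 h. Cr2 read 7.12, 6.72 and 6.92 before stimulation and 3.26, 2.84 and 2.69 after it on the WT arrays. For Cr2, Bach2-/- arrays read 6.23, 5.61 and 5.79 before and 1.05, 0.53 and 1.04 after. No 2 of the 4 groups overlapped, in the order WT 0 h, Bach2-/- 0 h, WT 24 h and Bach2-/- 24 h. The fall with anti-IgM was 15.9-fold in WT cells (-3.99 ± 0.27, adjusted p = 5.02e-06) and 32.1-fold in Bach2-/- cells (-5.01 ± 0.27, adjusted p = 6.33e-07). The genotype difference at 24 h was -2.06 ± 0.27 (adjusted p = 0.00124) and passed in all 26 alternatives. At 0 h it was -1.04 ± 0.27 and missed the threshold (adjusted p = 0.166; 0.00494 with the replicate block), and 5 of 26 alternatives called it. The difference of the changes was -1.02 ± 0.38 (adjusted p = 0.539; 0.0341 with the replicate block). A second probe of Cr2 gave -0.96 ± 0.25 at 0 h and -1.43 ± 0.25 at 24 h (adjusted p = 0.197 and 0.0103).

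Cd1d1, which encodes the lipid-presenting molecule CD1d, followed Cr2 with smaller differences. Cd1d1 read 3.48, 3.13 and 2.95 before stimulation and 1.71, 0.65 and 0.99 after it on the WT arrays. For Cd1d1, Bach2-/- arrays read 3.55, 2.76 and 2.78 before and 0.35, -0.56 and 0.32 after. The genotypes overlapped at 0 h and did not at 24 h. Cd1d1 fell 4.21-fold in WT cells (-2.07 ± 0.36, adjusted p = 0.00224) and 7.98-fold in Bach2-/- cells (-2.997 ± 0.36, adjusted p = 0.000181). At 24 h the genotype difference was -1.08 ± 0.36 and missed the threshold (adjusted p = 0.192; 0.00781 with the replicate block), with a 95% interval from -1.87 to -0.28. The second probe of Cd1d1 gave -0.71 ± 0.37 (adjusted p = 0.497). Over the 12 arrays, after the mean of each slide was taken off, Cd1d1 correlated with Cr2 at r = 0.985 and with Notch2 at r = 0.976. These r describe 12 arrays that share the same 4 groups, and most of each gene's spread is the fall with stimulation.

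Asb2 was 24.2-fold higher in Bach2-/- than in WT cells before stimulation and 17.0-fold higher after it. Asb2 read -2.52, -2.71 and -2.41 before stimulation and -6.07, -3.94 and -5.28 after it on the WT arrays. For Asb2, Bach2-/- arrays read 2.69, 1.61 and 1.84 before and -1.03, -0.82 and -1.16 after. No 2 groups overlapped, and every Bach2-/- array, stimulated or not, was above every WT array. The genotypes differed by 4.59 ± 0.46 before stimulation (adjusted p = 0.000695) and by 4.09 ± 0.46 after it (adjusted p = 0.000459), and both passed in all 25 alternatives that kept the probe. Of the WT arrays at 24 h, 1 of 3 was well above background for Asb2, so the size of the 24 h difference rests on dim values: it was 2.32 with the floor set at 0.1 and 1.17 after normexp background correction. With normexp the 0 h difference was 3.29. Asb2 fell with stimulation in Bach2-/- cells (-3.05 ± 0.46, adjusted p = 0.000857), with -2.54 after normexp. In WT cells the fitted change was -2.55 ± 0.46 (adjusted p = 0.00270), but its size rests on the same dim 24 h arrays. It was -0.78 with the floor at 0.1 and -0.42 with normexp, and neither passed (adjusted p = 0.0502 and 0.0608). With all 12 arrays the 2 changes differed by -0.50 ± 0.65 (adjusted p = 0.923), and these 2 settings gave -2.28 and -2.12 and called the difference (adjusted p = 0.0163 and 0.00125).

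Marcks went opposite ways with stimulation in the 2 genotypes. Marcks read 3.76, 3.71 and 3.81 before stimulation and 6.05, 5.63 and 5.62 after it on the WT arrays. For Marcks, Bach2-/- arrays read 5.36, 5.02 and 4.94 before and 4.31, 4.05 and 4.41 after. No 2 groups overlapped, in the order WT 24 h, Bach2-/- 0 h, Bach2-/- 24 h and WT 0 h. Marcks rose 4.01-fold in WT cells (2.003 ± 0.22, adjusted p = 0.000135) and fell 1.80-fold in Bach2-/- cells (-0.85 ± 0.22, adjusted p = 0.0273). The test of the 2 changes gave -2.85 ± 0.32 (adjusted p = 0.00230), and it passed in all 25 alternatives. Accordingly Marcks was higher in Bach2-/- cells at 0 h (1.34 ± 0.22, adjusted p = 0.0203) and lower at 24 h (-1.51 ± 0.22, adjusted p = 0.00325). The direction was the same in each of the 3 same-numbered pairs for all 4 of these differences. The call at 0 h was lost in 10 of 26 alternatives and that of the fall in 9 of 26, among them the fit without the pair of arrays that stood apart (adjusted p = 0.0633 and 0.132). On slide 1 alone the 0 h difference had an adjusted p of 0.0532.

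With stimulation, 6 of the 10 genes passed in WT cells, 2 higher and 4 lower, against 20.5% of all genes (11.5% higher, 9.06% lower). In Bach2-/- cells 8 passed, all lower, against 13.3% of all genes (5.51% higher, 7.74% lower). The arrays of 0 h and 24 h did not overlap for 7 of the 10 genes in WT and 8 in Bach2-/- cells, against 38.2% and 25.1% of all genes. The median change was -0.64 in WT and -1.74 in Bach2-/- cells, beside 0.04 and 0.07 over all genes. The 2 changes were tested against each other in 1 model, in which 0.330% of all genes passed, 0.264% with the higher and 0.0659% with the lower change in Bach2-/- cells. Of the 10 genes, 2 did, Dtx4 and Marcks, and 5 with the replicate number as a block, Dtx1, Dtx4, Hes5, Cr2 and Marcks. With that block, 3 of the 10 genes passed at 0 h, 8 at 24 h, 8 in WT and 9 in Bach2-/- cells, against 3.73%, 18.7%, 47.0% and 33.5% of all genes, and against 4.29% for the difference of the changes. The genotype and time comparisons share arrays with each other, so their calls are not independent.

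**Figure D3:**
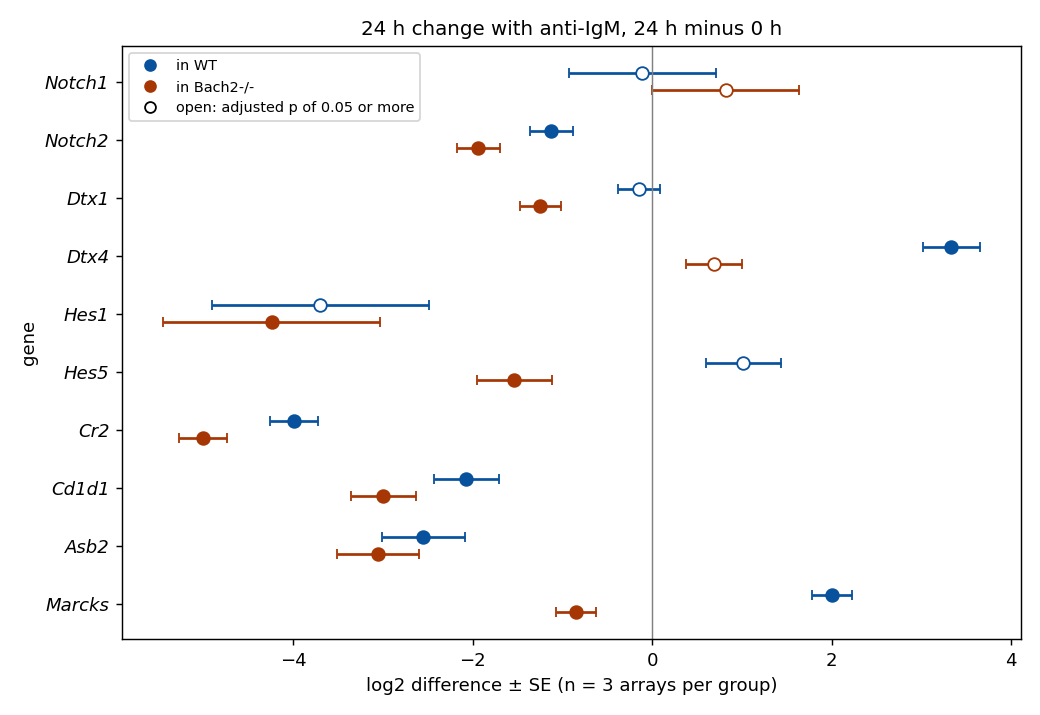
Change with anti-IgM (24 h minus 0 h, log2 ± SE, n = 3 arrays per group) of each of the 10 genes in WT (blue) and Bach2-/- cells (brown), with filled points where the limma adjusted p was under 0.05. Dtx4 and Marcks are filled to the right of 0 in WT cells, Cr2, Cd1d1, Notch2 and Asb2 lie to the left of 0 in both genotypes, and no filled point of Bach2-/- cells lies to the right.

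The rest of the Notch pathway was read from lists of ligands, receptors, processing enzymes, the transcription complex, and further targets and Deltex genes. Of 52 genes listed, 49 were on the array by symbol and 43 were tested. At 0 h limma called 0 of the 43, against 0.629% of all genes (4 at an unadjusted p under 0.05, and 1 with the replicate block, against 3.73%). At 24 h 3 of the 43 differed between genotypes, 1 higher and 2 lower, against 3.0% of all genes, and 10 with the replicate block, against 18.7%. Rbpj, the DNA-binding partner of Notch, was higher in Bach2-/- cells (1.41 ± 0.32, adjusted p = 0.0361). Lfng, a fucose-modifying glycosyltransferase that tunes Notch to its ligands, was lower (-1.45 ± 0.25, adjusted p = 0.00872). Nedd4, a ubiquitin ligase, was at least 2.53-fold lower (adjusted p = 0.000290), with no Bach2-/- array at 24 h well above background.

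With stimulation 14 of these 43 genes passed in WT cells (5 higher, 9 lower) and 9 in Bach2-/- cells (3 higher, 6 lower), against 20.5% and 13.3% of all genes. With the replicate block 25 and 22 passed, against 47.0% and 33.5%. Rbpj rose in both, by 2.16 ± 0.32 in WT (adjusted p = 0.000787) and 3.08 ± 0.32 in Bach2-/- cells (adjusted p = 5.67e-05). The ligase Mib1, which acts on ligands in the sending cell, also rose in both (1.39 ± 0.30 and 1.42 ± 0.30, adjusted p = 0.00707 and 0.00729). Adam10, the protease that makes the first ligand-induced cut, rose in WT cells (0.79 ± 0.22, adjusted p = 0.0264), where Furin (1.12 ± 0.28, adjusted p = 0.0157) and the corepressor Spen (0.82 ± 0.25, adjusted p = 0.0379) rose too. Those lower in both genotypes were Dll1, Lfng, Nedd4, the coactivator Maml2, the corepressor Tle3 and Dtx3l. Dll1, the ligand needed for marginal zone B cells, was at least 3.77-fold lower at 24 h in WT cells (adjusted p = 5.67e-05), where no array was then above background. In Bach2-/- cells Dll1 was above background on 1 of 3 arrays at 24 h (-1.19 ± 0.32, adjusted p = 0.0283). Lower in WT cells alone by the calls were Dll4 (at least 1.35-fold, adjusted p = 0.0113), Ep300 (-0.85 ± 0.19, adjusted p = 0.00969) and Maml3 (-1.07 ± 0.25, adjusted p = 0.0115). Nrarp, a Notch target that dampens the pathway, rose in Bach2-/- cells (1.58 ± 0.40, adjusted p = 0.0201), with 0.93 ± 0.40 in WT cells (adjusted p = 0.126). Limma called none of the 43 for the difference between the 2 changes (5 at an unadjusted p under 0.05, and 4 with the replicate block), so a call in 1 genotype alone does not show that they differ. The targets Hey1, Hey2 and Heyl and the ligand Jag1 were above background on 0 of 12 arrays and were not tested.

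Among other genes known from marginal zone B cells, those that differed between genotypes were higher in Bach2-/- cells, unlike Cr2 at 24 h. Of 8 tested (11 listed), 3 differed at 0 h and the same 3 at 24 h, against 0.629% and 3.0% of all genes, and all were higher in Bach2-/- cells. These were S1pr3, a receptor for sphingosine-1-phosphate, the tetraspanin Cd9 and the scavenger receptor Cd36. S1pr3 had a difference of 2.61 ± 0.25 at 0 h and 1.62 ± 0.25 at 24 h (adjusted p = 0.000410 and 0.00377). Cd9 had 1.62 ± 0.30 and 2.96 ± 0.30 (adjusted p = 0.0377 and 0.000287), with the call at 0 h lost in 11 of 26 alternatives. Cd36 had 2.90 ± 0.23 and 4.18 ± 0.23 (adjusted p = 0.000114 and 3.53e-06). The differences of Mzb1 (1.35 ± 0.50 and 1.60 ± 0.50) and Plac8 (1.95 ± 0.52 and 1.12 ± 0.52) did not pass, with adjusted p from 0.154 to 0.570. With the replicate block 5 of the 8 passed at 0 h, all higher, and 7 at 24 h, of which 6 were higher and Car2 was lower (-1.43 ± 0.52, adjusted p = 0.241 without and 0.0114 with the block). Over all genes 3.73% and 18.7% passed with the block. With stimulation Cd36 fell in both genotypes (-3.56 ± 0.23 in WT and -2.29 ± 0.23 in Bach2-/- cells, adjusted p = 3.47e-06 and 4.20e-05) and Cd9 rose in both (1.79 ± 0.30 and 3.13 ± 0.30, adjusted p = 0.00189 and 3.86e-05). S1pr3 fell in Bach2-/- cells (-0.82 ± 0.25, adjusted p = 0.04999, just under the threshold).

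Genes of follicular B cells were tested as well, since the labels name the cells follicular. Of 10 tested, limma called 0 at 0 h (0 at an unadjusted p under 0.05, and 0 with the replicate block), against 0.629% of all genes, or 3.73% with the block. Fcer2a, the CD23 gene, was 5.84 in WT and 6.03 in Bach2-/- cells at 0 h on average (difference 0.20 ± 0.37). At 24 h 3 of the 10 were lower in Bach2-/- cells (5 with the replicate block): the transcription factor Klf2 (-1.43 ± 0.23, adjusted p = 0.00458), the chemokine receptor Ccr7 (-1.64 ± 0.32, adjusted p = 0.0188) and the costimulatory ligand Icosl (-1.87 ± 0.24, adjusted p = 0.00121). Over all genes 0.835% were called lower at 24 h, and 18.7% were called in either direction with the block. With stimulation 8 of the 10 fell in each genotype, against 9.06% of all genes in WT and 7.74% in Bach2-/- cells. Among them were Icosl (-5.02 ± 0.24 in WT and -6.37 ± 0.24 in Bach2-/- cells) and Klf2 (-3.65 ± 0.23 and -5.24 ± 0.23), all 4 with adjusted p of 2.83e-06 or less. Itgb7, an integrin chain, fell in WT and Bach2-/- cells too (-4.29 ± 0.32 and -4.48 ± 0.32, adjusted p = 9.26e-06 and 4.15e-06). Thus at 24 h Cr2 and Cd1d1 fell beside the follicular genes, and the drop of a level in bulk RNA cannot tell fewer cells of a type from less RNA per cell.

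**Figure D4:**
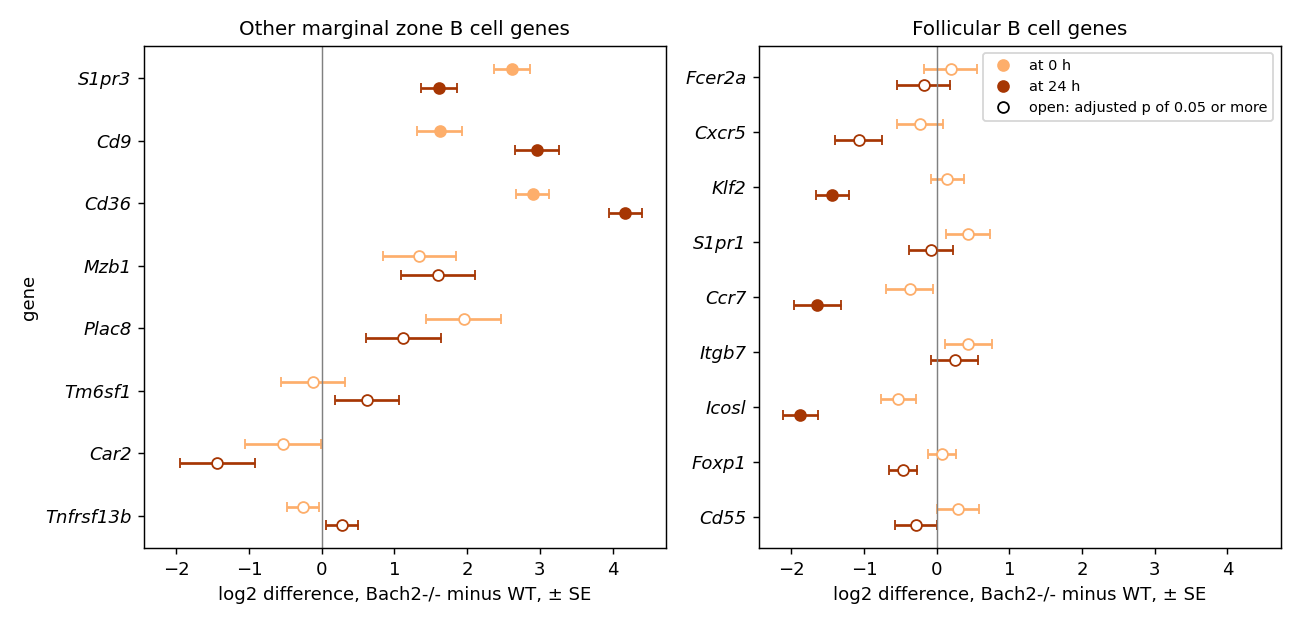
Difference between genotypes (Bach2-/- minus WT, log2 ± SE, n = 3 arrays per group) at 0 h (light) and 24 h (dark) of the tested genes of marginal zone B cells other than the 10 described (left panel) and of 9 of the 10 tested genes of follicular B cells (right panel), with filled points where the limma adjusted p was under 0.05. S1pr3, Cd9 and Cd36 are filled and to the right of 0 at both times, whereas among follicular genes Klf2, Ccr7 and Icosl are filled, to the left and at 24 h only.

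Markers of other cells moved with the genotype too, and their part in the differences above was not tested. Summed over a list, as signal relative to the 75th percentile, the 6 plasma cell markers were at 113 to 172 on WT and 368 to 628 on Bach2-/- arrays at 0 h, and at 105 to 189 and 206 to 355 at 24 h, with 6 of 6 above background on every array. The 6 B-1 B cell markers were at 10.3 to 12.7 in WT and 26.1 to 35.9 in Bach2-/- cells at 0 h, and at 34.0 to 47.2 and 94.2 to 120.1 at 24 h. Of the 6 plasma cell markers limma called 2 higher in Bach2-/- cells at 0 h and 3 at 24 h, with median differences of 1.03 and 2.10. For the 6 B-1 B cell markers these were 3 and 4, with medians of 1.15 and 1.61. Over all genes 0.629% and 3.0% passed. The 6 erythroid and platelet markers on the array were at 2.03 to 8.04 and 19.0 to 57.4 at 0 h, and at 0.323 to 1.48 and 4.04 to 18.6 at 24 h, with Klf1, an erythroid transcription factor, above background on no array at 24 h. The 7 neutrophil markers ranged from 12.5 to 33.9 in WT and 29.0 to 58.7 in Bach2-/- cells at 0 h, and from 1.76 to 18.4 and 12.7 to 55.2 at 24 h, so the genotypes overlapped at each time. In each of the 6 same-numbered pairs the Bach2-/- array had the higher neutrophil sum, and with the replicate block 3 of the 7 markers were called higher at each time (0 without it, with 4 and 5 at an unadjusted p under 0.05). Over all genes 3.73% and 18.7% were called with the block. The sums of the 6 NK cell markers did not overlap at 0 h, at 9.86 to 13.7 in WT and 16.0 to 18.8 in Bach2-/- cells, and were at 8.90 to 10.8 and 10.4 to 15.2 at 24 h. Of the 5 NK cell markers tested, limma called 0 at 0 h and 1 with the replicate block, against 0.629% and 3.73% of all genes. Their median difference at 0 h was -0.06, so the gap between the sums did not hold for the list as a whole. The 7 macrophage and monocyte markers on the array overlapped at each time (4.49 to 15.3 and 10.4 to 13.2 at 0 h, 9.29 to 12.5 and 8.91 to 19.8 at 24 h), with Ms4a7 called higher in Bach2-/- cells at both times and Lyz2 at 24 h. The 5 markers of transitional B cells were at 195.7 to 251.2 and 151 to 233 at 0 h, and their sums did not overlap at 24 h, at 39.8 to 84.8 in WT and 15.2 to 29.8 in Bach2-/- cells. Of the 4 tested, limma called 1 lower in Bach2-/- cells at 24 h, against 3.0% of all genes. With the replicate block 2 were called higher and 2 lower, against 18.7% of all genes. The sums of the 6 dendritic cell markers overlapped at each time, with Ccr9 and Itgax called higher and Flt3 lower in Bach2-/- cells at 24 h. The 7 T cell markers on the array ranged from 34.0 to 48.4 and 33.7 to 41.4 at 0 h, and from 96.4 to 160.6 and 84.4 to 105.5 at 24 h. With stimulation limma called 1 of the 7 higher and 2 lower in WT cells, and 1 higher in Bach2-/- cells. Over all genes 20.5% and 13.3% passed. The median change of the 7 was -0.34 in WT and -0.18 in Bach2-/- cells, so the rise of the sum did not hold for the list as a whole. General B cell markers, 6 of 6 above background on every array, ranged from 966 to 1318 in WT and 1099 to 1754 in Bach2-/- cells at 0 h, and from 437 to 830 and 229 to 388 at 24 h. Their sums thus did not overlap at 24 h, where the median difference of the 6 was -0.67. Limma called 0 of the 6 at 24 h, against 3.0% of all genes, and 3 lower with the replicate block, against 18.7%. Follicular dendritic cells also express Cr2. Their 4 markers summed to at most 0.333 at 0 h and to 0.248 to 0.384 in WT and 2.01 to 2.25 in Bach2-/- cells at 24 h, where Cxcl13 and Fcna were above background on no array. Of the 2 tested, limma called 1 higher in Bach2-/- cells at 24 h (2 with the replicate block), against 3.0% of all genes (18.7%). With stimulation in WT cells the same marker was called higher and the other lower.

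The genes with the most similar pattern were read as the 2 with the highest Pearson r over the 12 arrays, after the mean of each slide was taken off, among 13052 named genes. They describe co-variation over the same 4 groups of 3 arrays and show no shared control. For Marcks they were Gadd45b (r = 0.970), an inducible stress response gene, and Csf2rb (r = 0.960), the shared beta chain of cytokine receptors. Gadd45b changed by 1.70 ± 0.27 with stimulation in WT cells (adjusted p = 0.00122) and had -0.67 ± 0.27 in Bach2-/- cells (adjusted p = 0.147). The difference of these changes passed (-2.37 ± 0.38, adjusted p = 0.0254). For Asb2 they were S100a6 (r = 0.988) and Fgl2 (r = 0.986). S100a6, a calcium-binding protein gene, was higher in Bach2-/- cells by 5.34 ± 0.42 at 0 h and 5.36 ± 0.42 at 24 h (adjusted p = 0.000114 and 4.47e-05). For Cr2 they were Xkrx and the homeobox gene Hhex (r = 0.996 and 0.994), for Hes5 Tmcc3 and Mterf2 (r = 0.982 and 0.960), and for Dtx4 Klhl15 and Pgap2 (r = 0.982 and 0.979). For Cd1d1 they were Blvrb and Tlr6 (both r = 0.996), for Notch2 Zfp821 and Traf3ip2 (both r = 0.995) and for Dtx1 Lurap1 and Bbs2 (both r = 0.984). For Hes1 they were Fmnl1 and Lmbrd1 (r = 0.994 and 0.992). For Notch1 they were Hes7 and Plxna1 (r = 0.990 and 0.983), and Bach2-/- 24 h replicate 2 was the single high array of Notch1.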

How the data were processed

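Total RNA was labelled with Cy3 and hybridised to Agilent one-colour arrays, 12 in all with 3 per group, per the labels. Per the submitters' processing notes, Feature Extraction 10.7.3.1 of Agilent read the images, and its processed signal is an intensity after background subtraction, per the file headers. Flags for control spots, outliers and signal well above background came with it, per the file headers. A further table of all samples, deposited as log2 values, comes without a stated scale or centring. Set against the log2 scanner signal scaled to the 75th percentile, with the median of each probe over the arrays taken off, its columns correlated at r 0.9987 to 0.9999. The direction and the centring of each probe therefore match. A correlation does not change with the scale or offset of a column, so it cannot show whether those match. The order of its steps stays unknown. Columns had medians, in replicate order, of -0.04, 0.16 and 0.01 (WT 0 h), -0.27, 0.11 and 0.01 (WT 24 h), -0.26, -0.10 and -0.03 (Bach2-/- 0 h), and -0.27, 0.50 and 0.07 (Bach2-/- 24 h).

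Outlier spots (112 to 511 of 59305 noncontrol spots per array; none was saturated) were left out and spots of a probe averaged. Signals were scaled to the 75th percentile of their array, values under 0.01 were raised to 0.01, and log2 was taken. Probes stayed in (30751 of 55681) where any group had all 3 arrays well above background, and the probe of highest mean stood for its gene. Names came from RefSeq accessions through a GRCm38.p6 table (26413 probes), and the array's own annotation is on mm9, so no gene coordinates are given beyond the promoter windows of RefSeq. Limma 3.58.1 (R 4.3.3) fitted 1 mean per group over the 12 arrays, with 5 comparisons, 2-sided p-values and Benjamini-Hochberg adjustment. The smallest p an exact permutation test of 3 against 3 arrays can give is 0.1, so none is reported. Where a gene was dim on every array of a group, "at least" marks a bound: the mean of the brighter group over that of the dim group, where each dim array counts with its own value or, if higher, the lowest value among its probes well above background. Precision is limited by having 3 arrays per group.

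The labels number the replicates. In all 18 same-numbered pairs of arrays the deviations from their group's mean correlated (r 0.47 to 0.89), and the number coincides in part with the slide. Different-numbered pairs on the same slide (12) correlated too, at r 0.25 to 0.65, and those on different slides (24) had r -0.81 to -0.42. Much of this pattern thus follows the slide, and the labels do not state a pairing by number. The blocked value is given where it changes a call or moves a count by over 1.5 times. Alternatives were the scaling, background correction, dim-probe filter, floor, probe choice, the deposited log2 table, replicate and slide blocks, slide 1 alone, the compared groups alone, array weights and leaving arrays out. The fit was also run on simulated data in which the noise of each array was independent. Those data lacked the correlation between arrays given above, so they cannot show how the calls fare with it. The median signal stood in for the mean signal in the normexp alternative. The 10 genes, the lists of pathway, zone and cell type genes and the alternatives were chosen with earlier results of these data known. Named from the lists were all genes called where a list had at most 6 in a comparison, otherwise those of largest difference, and some fixed by name; 2 listed genes are counted but not reported here by name.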

Additional observations from a re-analysis of the deposited data

Results flagged for a closer look

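For 2 of the 10 genes the 24 h change differed between the genotypes by the test of the difference itself. Dtx4 changed by 3.33 in WT and 0.69 in Bach2-/- cells, a difference of -2.65 ± 0.44 on the log2 scale (limma adjusted p = 0.0302), with -2.25 on slide 1 and -3.45 on slide 2. Marcks changed by 2.003 and -0.85, a difference of -2.85 ± 0.32 (limma adjusted p = 0.00230), with -2.61 on slide 1 and -3.34 on slide 2. In each of the 3 same-numbered pairs both differences were negative.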

How the results depend on the processing

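Of the alternative values for single genes, 1148 kept their direction and side of the threshold, 71 lost their call, 38 gained one and 23, none of them called, changed sign. Counts below are genes called by limma, of the 10 described or of the 61 other listed genes tested, and comparisons are the genotype difference at 0 h and at 24 h, the change in WT and in Bach2-/- cells, and the difference of the changes. As reported, the 10 genes gave 2, 7, 6, 8 and 2 calls and the other genes 3, 9, 24, 20 and 0 (11 at an unadjusted p under 0.05 in the last).

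With the replicate block the other genes gave 6, 22, 39, 37 and 10 calls and the 10 genes 5 for the difference of the changes. With the slide block these were 5, 20, 38, 36, 9 and 5, and with array weights 9, 20, 39, 41, 11 and 4. Over all genes 0.629%, 3.0%, 20.5%, 13.3% and 0.330% passed as reported, and 3.73%, 18.7%, 47.0%, 33.5% and 4.29% with the replicate block. Shares over all genes are not at hand for the other alternatives. The counts here and below therefore describe the settings and are no result about the listed genes. Normexp gave 4 of the 10 and 5 others at 0 h and 1 other for the difference of the changes, and the floor of 0.1 gave 2 others there. At 0 h 1 of the 10 was called with no filter on dim probes, with probes above background on all 12 arrays, on slide 1 alone, with only the compared groups fitted, and without both arrays that stood apart. With no filter 5 fell in Bach2-/- cells and 1 gene had a called difference of the changes. With only the compared groups fitted, 4 of the 10 and 4 others were called at 24 h. Without both arrays that stood apart, 1 of the 10 and 1 other were called for the difference of the changes.

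With 1 array left out, the 10 genes gave 1 to 2 calls at 0 h (1 without any of the 6 arrays at 0 h), 6 at 24 h, 5 to 8 in Bach2-/- cells (5 without replicate 3 at 0 h or replicate 1 or 3 at 24 h) and 1 to 2 for the difference of the changes, and the other genes 0 to 1. The sign turned in these uncalled results. Notch1 ranged from -0.44 to 0.53 at 0 h, -0.021 to 1.78 at 24 h, -0.60 to 0.34 for the change in WT and -0.17 to 1.63 in Bach2-/- cells, and -0.061 to 1.74 for their difference. Hes1 ranged from -1.08 to 1.03 at 0 h, -1.53 to 0.34 at 24 h and -1.59 to 0.60 for the difference of the changes. Asb2 ranged from -0.99 to 0.073 there, and Dtx1 from -0.31 to 0.016 for the change in WT cells. Hes1 at 0 h was -0.12 on slide 1 alone, and without both arrays that stood apart Notch1 was -0.021 at 24 h, -0.66 for the change in Bach2-/- cells and -0.55 for the difference of the changes. The causes were not tested. Scaling moved the median of all genes by less than 0.1 in every comparison. Dim signal limits Hes1 and Asb2 at 24 h and the weaker Notch1 probe. The blocked value changed no call of the 10 genes beyond those given with the results.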
